A study of Mus musculus with 24 samples.

Results

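Neurons lacking the histone variant H2BE were compared 24 h and 30 min after the addition of BDNF, with 8 libraries out of the 24 of the series. These were the 4 libraries of knockout (KO) cultures treated with BDNF for 24 h and the 4 libraries of KO cultures treated with BDNF for 30 min, taken by their labels and paired by the culture code that both libraries of a culture carry. The KO genotype is labelled H2BE-KO/mCherry-KI, that is, a loss of H2be with an mCherry reporter knocked in. The cells were primary cortical neurons from mouse embryos in the third week of gestation, kept in culture for 12 days, and polyadenylated RNA was sequenced from 4 biological replicates in each group. By their labels, all 8 libraries carried the KO alleles and were exposed to BDNF, for one of the lengths of time; its dose was not stated in the sources used here. The same cultures also gave untreated KO control libraries, and wild-type (WT) cultures gave 4 libraries at each of the same times.

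BDNF is a secreted growth factor that binds the receptor kinase TrkB, the product of Ntrk2, and signals through the MAP kinase, PI3 kinase and phospholipase C pathways. In cortical neurons it switches on a rapid set of genes within minutes, mostly transcription factors of the Fos and Egr families whose transcripts are short-lived, and these are followed over hours by late genes that encode secreted peptides, proteases, matrix proteins and synaptic proteins. Late genes often carry binding sites for AP-1, the complex of Fos and Jun proteins. H2BE belongs to the H2B histones, which help to form the nucleosomes that package DNA.

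Library totals ran from 19780486 to 60433558 counts. KO culture 4 stood apart from cultures 1 to 3. Of 3503 genes that were called without culture 4, 51.5% changed in the same direction within it, with a median change of 0.015 on the log2 scale against 0.435 in the other cultures. When culture 1, 2 or 3 was left out instead, 96.2%, 96.8% and 82.1% of the called genes kept their direction in it. On a scale where 0 is the 30 min level and 1 the 24 h level of the other cultures, culture 4 stood at 0.762 at 24 h and at 0.75 at 30 min, while its untreated library stood at 0.0862. Cultures 1 to 3 were placed in the same way, each with its own called genes and with culture 4 among the reference cultures. They stood at 0.761 to 1.06 at 24 h and at -0.064 to 0.23 at 30 min. The scales differ between cultures, so these positions cannot be set directly against those of culture 4. The share of counts from mitochondrially encoded genes was 10.9% at 24 h and 21.7% at 30 min in culture 4, and 4.2% to 9.26% and 4.6% to 7.52% in the other cultures. The library labelled KO BDNF 24 h replicate 4 also held 145 CPM of Xist, which is made in female cells, together with 66.3 CPM of the Y-linked gene Ddx3y, whereas its 30 min partner held 426 and 0.904 CPM. KO 30 min replicate 3 had the lowest total and 15323 genes with a count, against 17926 to 21223 in the other KO 30 min libraries. All 60 named genes past the threshold with all cultures also passed it, in the same direction, without culture 4. Most counts and changes are given both ways.

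Hist2h2be, the gene targeted in the KO (ENSMUSG00000068854.7, chr3:96221119-96223738, mm10), had 50, 60.9, 53.6 and 21.2 CPM (counts scaled to a common library size, with a correction for composition) at 24 h in cultures 1 to 4, against 54.7, 63.1, 54.1 and 53.7 CPM at 30 min. The library labelled KO 24 h replicate 4 was the low one, and WT libraries held 3.15 to 5.83 CPM. The row was thus higher in KO than in WT; since no source used here says what sequence the knock-in left in place, the row does not check the loss of the coding sequence. It did not change past the threshold between the times (log2 fold change -0.34 ± 0.16 SE, edgeR adjusted p = 0.192; -0.06 ± 0.08 and 0.643 without culture 4).

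Markers of neurons were abundant at both times: the summed level of 10 pan-neuronal markers was 8400 to 8790 CPM at 24 h and 8180 to 9260 CPM at 30 min. Of 9 measured microglia and macrophage markers, summed at 9.78 to 13.2 CPM at 24 h and 8.83 to 18.1 CPM at 30 min, 0 passed the test in either direction. Of 13 measured astrocyte markers, summed at 305 to 573 CPM at 24 h and 335 to 391 CPM at 30 min, 0 were higher and 1 was lower; this was Sox9, a glial transcription factor, at 3.06 to 5.47 CPM at 24 h and 8.67 to 14.4 CPM at 30 min. Of 11 measured endothelial, pericyte and fibroblast markers, summed at 46.7 to 91.7 CPM at 24 h and 64.3 to 97.4 CPM at 30 min, 0 were higher and 1 was lower, the smooth muscle actin gene Acta2. For comparison, 5.41% of all genes tested were higher and 6.16% were lower. In bulk libraries fewer cells of a type and less RNA per cell cannot be told apart.

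Across all genes, 1940 of 16777 (11.6%) differed between 24 h and 30 min in KO neurons by edgeR's quasi-likelihood test with culture as a block and Benjamini-Hochberg adjustment. Of these, 907 were higher at 24 h (5.41% of the genes tested) and 1033 were lower (6.16%). Most changes were small: 166 genes were more than 2-fold higher and 117 more than 2-fold lower, and 83.5% of the called genes changed in the same direction in all 4 cultures. Without culture 4, 3505 of 16915 genes passed (20.7%), 1683 higher (9.95%) and 1822 lower (10.8%). A total of 1716 genes passed both ways and none of those called with all 4 cultures changed sign. The libraries of the 2 times did not overlap in 1145 genes (6.82% of those tested), and 784 of these were called. Genes named below were mostly chosen for their change, so a lack of overlap in them is no separate test.

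The counts differed with the libraries that entered the fit. In the fit above all 24 libraries shared one estimate of the spread. The biological coefficient of variation was 19.6% over the 12 KO libraries, 13.2% over the 9 of cultures 1 to 3, and 8.19% over the 12 WT libraries. With the 12 KO libraries fitted alone, 572 of 16117 genes passed (3.55%), 250 higher (1.55%) and 322 lower (2%), and with the 6 KO BDNF libraries of cultures 1 to 3 alone 1288 of 15799 passed (8.15%). With the 8 KO BDNF libraries alone, the comparison with no other library in the fit, 41 of 15687 passed (0.261%). Of the 60 named genes past the threshold, 33 also passed in the 12 KO libraries alone, 46 in the 6 and 4 in the 8. Where one of these genes described below missed the threshold in the 12, its adjusted p there is given.

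Many rapid genes fell. Of 48 rapid activity-regulated genes, 17 were lower and 3 were higher at 24 h than at 30 min, against 6.16% and 5.41% of all genes tested, and the median log2 fold change of the list was -0.27, against 0 over all genes. Without culture 4, 23 were lower (47.9%) and 3 higher (6.25%), against 10.8% and 9.95% of all genes, with a median of -0.40. In the 12 KO libraries alone 18 were lower and 1 higher. The median change within a culture was -0.55, -0.50, -0.49 and -0.12 in cultures 1 to 4. The rapid genes that rose were Nab2, which encodes a corepressor of Egr proteins, the AP-1 gene Fosl1, and Ier3; they are named because they were the only ones, after their values were seen.

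Fos, which encodes a subunit of AP-1 (ENSMUSG00000021250.11, chr12:85473890-85477273), had 149, 174, 146 and 161 CPM at 24 h in cultures 1 to 4, against 514, 570, 406 and 242 CPM at 30 min. The 24 h libraries lay close together and all below the 30 min libraries, among which culture 4 was the lowest. The log2 fold change was -1.39 ± 0.19 SE (edgeR adjusted p = 0.000178), and -1.66 ± 0.17 without culture 4 (1.46e-06). Fosb, a paralogue of Fos, had 46.6, 51.2, 36.6 and 41.8 CPM at 24 h, against 133, 150, 104 and 70.7 CPM at 30 min. The groups did not overlap and culture 4 was again the lowest at 30 min (-1.34 ± 0.20, adjusted p = 0.000273; -1.52 ± 0.20 and 1.51e-05 without culture 4). Junb, a partner of Fos proteins in AP-1, had 14.1, 14.5, 14.9 and 25.5 CPM at 24 h, against 67.5, 92.6, 73.6 and 36.4 CPM at 30 min. Culture 4 was the highest library at 24 h and the lowest at 30 min, and the groups still did not overlap (-1.92 ± 0.27, adjusted p = 0.0002; -2.41 ± 0.19 and 4.23e-08 without culture 4).

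Among the Egr zinc finger factors, Egr1 had 65.3, 69.2, 49.4 and 187 CPM at 24 h, against 540, 635, 447 and 231 CPM at 30 min. The libraries of culture 4 lay close together, with its 24 h library far above those of the other cultures. The log2 fold change was -2.43 ± 0.35 with all cultures (edgeR adjusted p = 0.000285) and -3.13 ± 0.18 without culture 4 (1.97e-09). Egr3 fell to 2.76, 3.28, 2.73 and 4.48 CPM at 24 h, against 15.5, 20.3, 17.2 and 6.05 CPM at 30 min (-2.09 ± 0.28, adjusted p = 0.000126). Egr4 fell to 4.65, 4.15, 6.53 and 11.6 CPM, against 25.1, 33.5, 21.5 and 12.5 CPM (-1.81 ± 0.30, adjusted p = 0.00083). In both genes the libraries of culture 4 lay next to each other, and without it the changes were -2.58 ± 0.20 and -2.40 ± 0.20.

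Npas4, a neuron-specific transcription factor induced by calcium entry, had 75.2, 74.1, 69.1 and 110 CPM at 24 h, against 473, 486, 365 and 182 CPM at 30 min. The groups did not overlap (-2.09 ± 0.26, edgeR adjusted p = 6.93e-05; -2.58 ± 0.16 and 3.93e-09 without culture 4). Nr4a1, an orphan nuclear receptor, had 60.1, 69.5, 56.6 and 83.1 CPM at 24 h, against 249, 279, 155 and 115 CPM at 30 min (-1.49 ± 0.21, adjusted p = 0.000248; -1.85 ± 0.17 and 2.29e-07 without culture 4). Arc, whose product removes glutamate receptors from synapses, had 23.8, 19.4, 18.5 and 61.5 CPM at 24 h, against 141, 123, 87.5 and 60.4 CPM at 30 min. Culture 4 had the same level of Arc at both times, so the groups overlapped through it (-1.83 ± 0.34, adjusted p = 0.00181; -2.49 ± 0.19 and 4.11e-08 without culture 4). A further 2 rapid genes fell by over 2 on the log2 scale: Btg2, an antiproliferative regulator of mRNA decay (-2.29 ± 0.29, adjusted p = 7.89e-05), and Ccn1, a secreted matrix protein (-2.16 ± 0.28, adjusted p = 9.01e-05). Without culture 4 the changes were -2.88 ± 0.17 for Btg2 and -2.72 ± 0.15 for Ccn1.

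**Figure D1:**
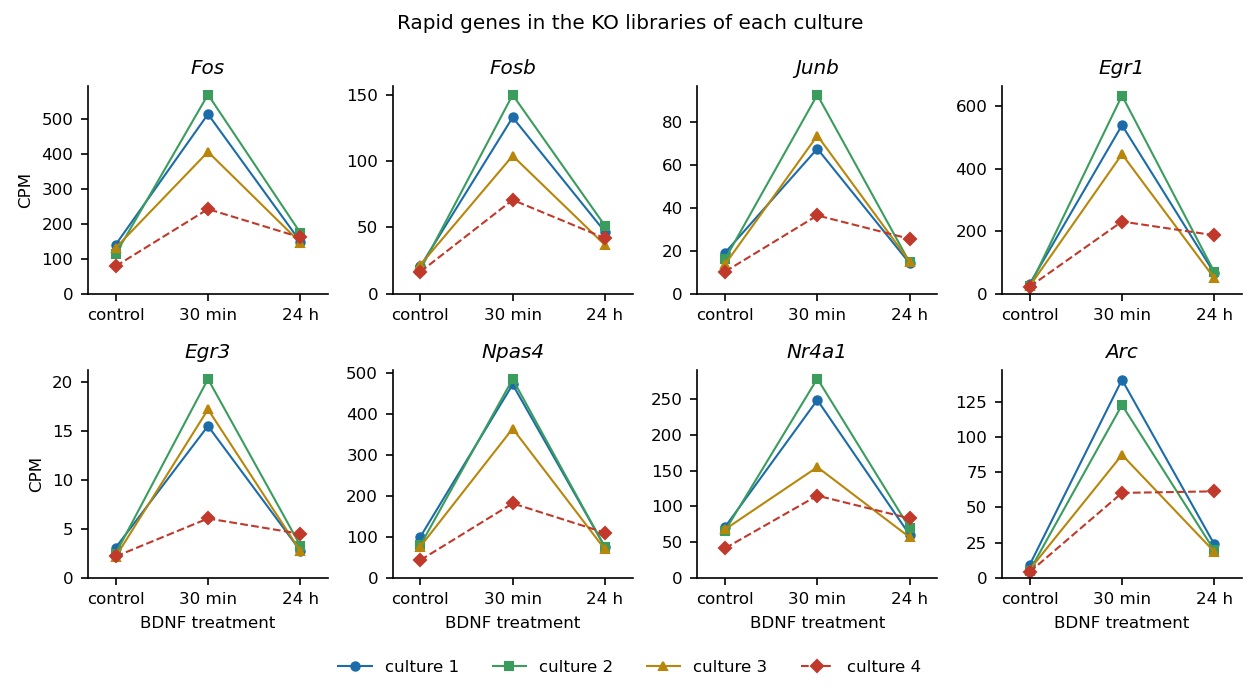
CPM of 8 rapid genes (y axis, linear from 0) in each KO culture without BDNF, after 30 min and after 24 h (x axis); each line joins the 3 libraries of 1 culture. Cultures 1 to 3 peak at 30 min, while culture 4 (dashed) is the lowest at 30 min in all 8 panels and above the other cultures at 24 h for Junb, Egr1, Egr3, Npas4, Nr4a1 and Arc.

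At 24 h some of these genes remained above the untreated level of the same cultures. Each comparison with the controls shares the 24 h or the 30 min libraries with the comparison above. Fosb, at 20.5, 18, 21.6 and 16.4 CPM in untreated KO libraries, was higher at 24 h by 1.21 ± 0.20 on the log2 scale (edgeR adjusted p = 0.00043; 1.17 ± 0.20 and 0.000379 without culture 4). Arc, at 4.04 to 9.11 CPM in untreated libraries, was higher by 2.28 ± 0.36 (adjusted p = 0.000311; 1.68 ± 0.22 and 1.63e-05 without culture 4), and Egr1, at 21.9 to 30.8 CPM, by 1.81 ± 0.35 (adjusted p = 0.00137; 1.26 ± 0.18 and 4.57e-05). Ccn1 was higher by 1.10 ± 0.28 (adjusted p = 0.00988; 0.56 ± 0.15 and 0.0118 without culture 4). Egr4 was higher by 1.07 ± 0.32 with all cultures (adjusted p = 0.0267) and missed the threshold without culture 4 (0.62 ± 0.22, adjusted p = 0.0552). Fos, Junb, Egr3, Npas4, Nr4a1 and Btg2 did not differ from the untreated level past the threshold, at 0.17 to 0.67 on the log2 scale with all cultures and -0.21 to 0.29 without culture 4. Over all genes, 2834 (16.9%) passed for 24 h against control and 25 (0.149%) for 30 min against control. These counts are given with culture 4 only.

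The promoters of Btg2 and Nr4a1 were chosen as examples among the rapid genes. Each holds a searched motif within 250 bases before and 50 after its start. In the window of Btg2 (RefSeq, GRCm38.p6, chr1:134079106-134079405, minus strand) the capitals mark the cAMP response element TGACGTCA, which begins 166 bases before the start, and an Egr motif, GCGNGGGCG, which begins 131 bases before it; in that of Nr4a1 (chr15:101266596-101266895, plus strand) they mark the Egr motif, read on the opposite strand and beginning 60 bases before the start.
Btg2: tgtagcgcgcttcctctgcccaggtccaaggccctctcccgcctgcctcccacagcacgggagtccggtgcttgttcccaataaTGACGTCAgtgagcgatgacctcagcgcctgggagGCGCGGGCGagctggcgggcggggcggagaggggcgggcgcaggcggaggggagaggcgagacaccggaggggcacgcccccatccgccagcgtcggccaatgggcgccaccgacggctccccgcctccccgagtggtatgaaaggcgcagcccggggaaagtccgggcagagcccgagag
Nr4a1: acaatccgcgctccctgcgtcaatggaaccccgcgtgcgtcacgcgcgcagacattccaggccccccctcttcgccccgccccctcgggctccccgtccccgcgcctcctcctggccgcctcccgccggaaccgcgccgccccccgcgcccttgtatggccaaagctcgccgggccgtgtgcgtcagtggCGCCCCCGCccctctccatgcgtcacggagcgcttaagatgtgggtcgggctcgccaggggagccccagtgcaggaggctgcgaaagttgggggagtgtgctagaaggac
Both strands were searched for each motif, and 49 of the 67 named genes had a window. TGACGTCA was in 1.79% of the 32851 windows of the table, in 3.98% of the 1054 windows of genes lower at 24 h and in 1.75% of the 916 windows of genes higher at 24 h. GCGNGGGCG was in 5.55% of all windows, in 11.8% of those of lower genes and in 11.5% of those of higher genes. The CArG box, bound by serum response factor, was in 1.63% of all windows, in 1.42% of those of lower genes and in 1.86% of those of higher genes. Of the largest falls, 10 genes had a window, of which 1 held TGACGTCA, 1 held GCGNGGGCG and 0 held the CArG box. These shares describe letters in the windows, and genes with several starts have several windows. The share over all windows includes genes that were not tested here, so it is no background for the called genes.

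Other genes with a large fall were not rapid genes. Grm2, a presynaptic glutamate autoreceptor that couples to inhibitory G proteins, had 3.25, 3.48, 5.49 and 16.9 CPM at 24 h, against 38.2, 43.1, 40.7 and 20 CPM at 30 min. In culture 4 the libraries nearly met, and in cultures 1 to 3 they lay far apart (-2.45 ± 0.39, edgeR adjusted p = 0.000564; -3.34 ± 0.19 and 1.84e-09 without culture 4). The vasopressin receptor gene Avpr1a had a mean of 0.807 ± 0.244 CPM at 24 h and 3.82 ± 1.0 CPM at 30 min (SD, n = 4 each), with no overlap (-2.23 ± 0.26, adjusted p = 5.16e-05; -2.54 ± 0.26 and 1.25e-06 without culture 4). The secreted factor genes Esm1 and Vegfd fell by 2.51 ± 0.53 and 2.12 ± 0.45 (adjusted p = 0.00445 and 0.00452), at levels of at most 3.81 CPM. In the 6 KO BDNF libraries of cultures 1 to 3 alone, Esm1 missed the threshold (0.166). Acbd7, a small acyl-CoA binding protein, fell by 1.93 ± 0.55 (adjusted p = 0.0275), and missed the threshold in the 12 KO libraries alone (0.106).

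Part of the late genes rose, and culture 4 moved the other way. Of 49 measured late activity-regulated genes, 11 were higher (22.4%) and 1 was lower (2.04%) at 24 h with all cultures, against 5.41% and 6.16% of all genes. Without culture 4, 24 were higher (49%) and 1 lower (2.04%), against 9.95% and 10.8%. In the 12 KO libraries alone 7 were higher and 1 lower. The median log2 fold change was 0.20 with all cultures and 0.42 without culture 4. Within cultures 1 to 4 the median change was 0.41, 0.44, 0.33 and -0.35, and the summed level of the list was 11700, 11900, 11800 and 10300 CPM at 24 h against 8880, 8670, 9810 and 12700 CPM at 30 min. The late gene that fell was Bmp3, a BMP-family ligand, named after its value was seen (log2 fold change -1.13).

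**Figure D2:**
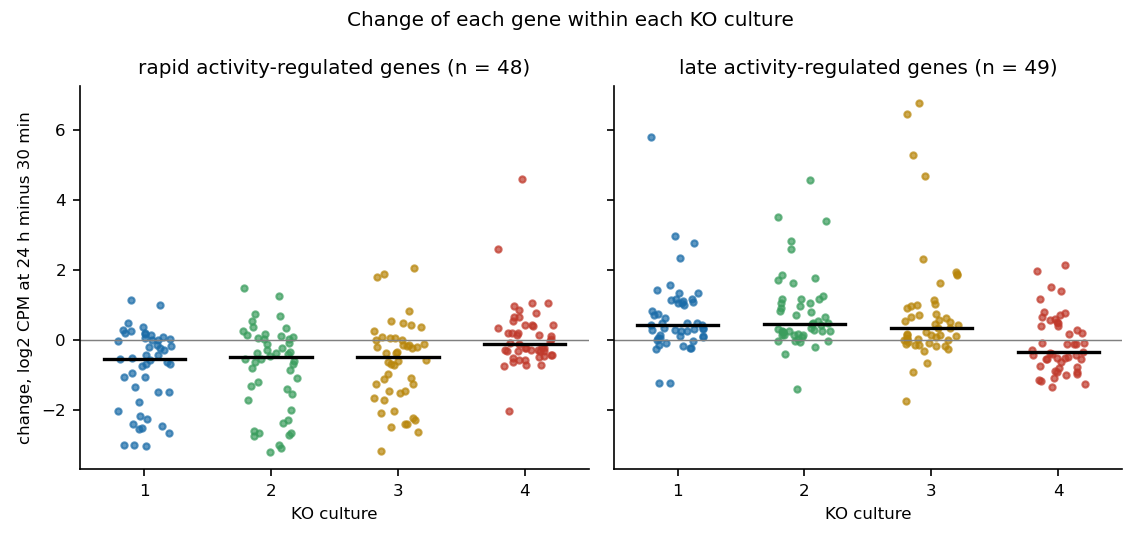
Change in log2 CPM at 24 h minus 30 min (y axis) of each measured member of the rapid list (48 genes, left) and of the late list (49 genes, right) within each KO culture (x axis); black bars are medians. The medians of cultures 1 to 3 lie at -0.55 to -0.49 for the rapid list and at 0.33 to 0.44 for the late list, while those of culture 4 lie at -0.12 and -0.35.

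Mmp3, stromelysin-1, a secreted protease that cleaves matrix proteins (ENSMUSG00000043613.7, chr9:7445822-7455975), had 2.53, 1.85, 4.02 and 10.4 CPM at 24 h, against 0, 0.0338, 0 and 2.35 CPM at 30 min. In cultures 1 to 3 it was close to absent at 30 min, with 2 counts in all against 364 at 24 h, a ratio of CPM of 176 (95% exact interval 48.3 to 1460, counting error only). The fitted change was 4.02 ± 0.70 with all cultures (edgeR adjusted p = 0.00115); the 30 min library of culture 4 overlapped the 24 h group. Serpinb2, an inhibitor of plasminogen activators, had 5.34, 3.54, 5 and 6.93 CPM at 24 h, against 0.746, 0.271, 0 and 7.59 CPM at 30 min. Culture 4 alone was already high at 30 min (2.49 ± 0.68, adjusted p = 0.0231; 3.80 ± 0.58 and 9.53e-05 without it), and the gene missed the threshold in the 12 KO libraries alone (0.113). Tnc, the matrix glycoprotein tenascin C, had 43.2, 43.4, 32 and 29 CPM at 24 h, against 5.5, 6.14, 8.65 and 22.3 CPM at 30 min, with no overlap (1.99 ± 0.35, adjusted p = 0.00141; 2.60 ± 0.30 and 4.41e-06 without culture 4). Pdyn, the precursor of dynorphin peptides, varied between cultures, with 2.98, 10.6, 1.78 and 6.55 CPM at 24 h and 1.34, 5.11, 0 and 4.16 CPM at 30 min. It was higher at 24 h in each of the 4 cultures although the groups overlapped (1.32 ± 0.33, adjusted p = 0.0153), and it missed the threshold in the 12 KO libraries alone (0.112).

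**Figure D3:**
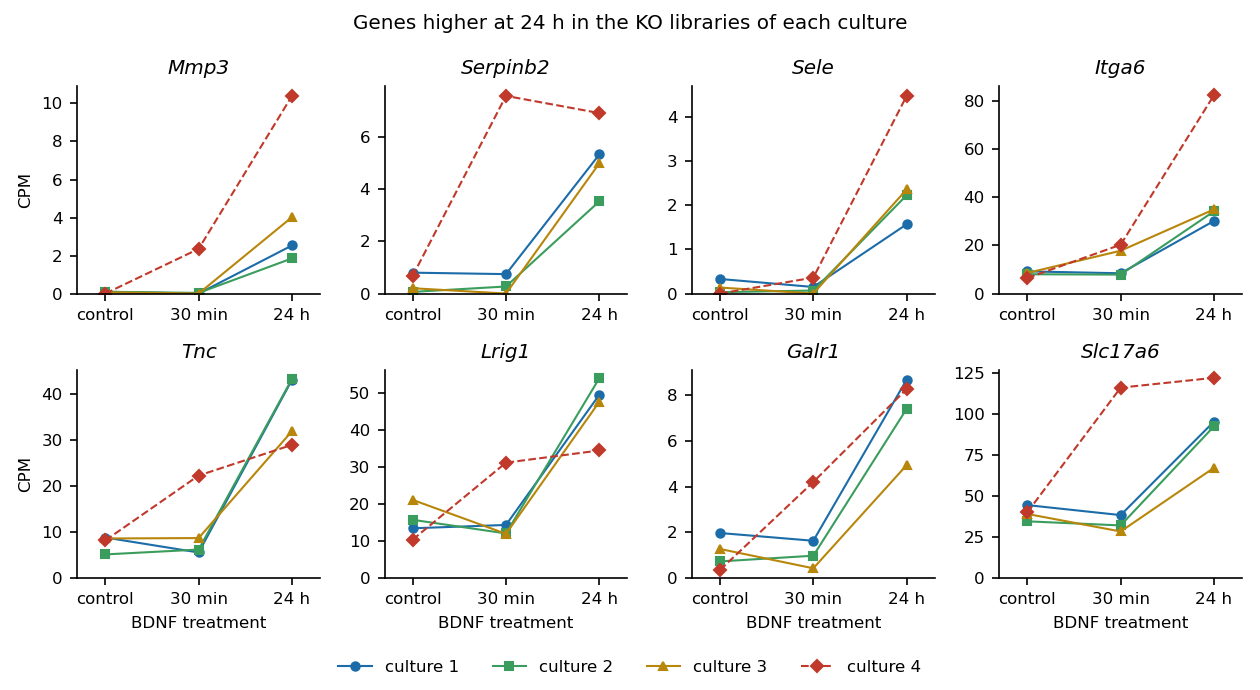
CPM of 8 genes that were higher at 24 h (y axis, linear from 0) in each KO culture without BDNF, after 30 min and after 24 h (x axis); each line joins the 3 libraries of 1 culture. Cultures 1 to 3 stay near the untreated level at 30 min for most of the genes and rise at 24 h, while culture 4 (dashed) is the highest library at 30 min in all 8 panels.

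Adhesion and matrix receptors were among the largest rises. Sele, E-selectin, which tethers leukocytes to activated endothelium (ENSMUSG00000026582.6, chr1:164048234-164057677), had 1.57, 2.23, 2.36 and 4.48 CPM at 24 h, against 0.149, 0.0677, 0 and 0.361 CPM at 30 min. All 4 cultures rose and the groups did not overlap (4.29 ± 0.68, edgeR adjusted p = 0.000579; 4.58 ± 0.71 and 0.000105 without culture 4). The endothelial marker Pecam1 was at 0.421 to 0.92 CPM at 24 h and 0.542 to 1.75 CPM at 30 min, and did not pass the test (adjusted p = 0.333). Itga6, the integrin α6 subunit of laminin receptors, had 30.2, 34.2, 35 and 82.5 CPM at 24 h, against 8.43, 7.88, 17.8 and 20.3 CPM at 30 min, again with no overlap (1.75 ± 0.27, adjusted p = 0.000473; 1.66 ± 0.25 and 8.26e-05 without culture 4). Itga2, an integrin subunit of collagen receptors, had 1.7, 1.55, 1.21 and 3.04 CPM at 24 h, against 0.299, 0.102, 0 and 0.632 CPM at 30 min (2.98 ± 0.55, adjusted p = 0.00167; 3.33 ± 0.62 and 0.000621 without culture 4), and missed the threshold in the 6 KO BDNF libraries of cultures 1 to 3 alone (0.0525). Of 44 measured integrin, laminin and collagen genes, 8 were higher (18.2%) and 3 lower (6.82%), against 5.41% and 6.16% of all genes, and without culture 4 12 were higher (27.3%) and 4 lower (9.09%), against 9.95% and 10.8%; in the 12 KO libraries alone 3 were higher and 3 lower. Lamb3, a laminin chain, was higher by 1.24 ± 0.30 (adjusted p = 0.0106) and missed the threshold in the 12 KO libraries alone (0.113).

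The promoters of Mmp3 (chr9:7445572-7445871, plus strand) and Sele (chr1:164047984-164048283, plus strand) are shown because they were the only windows among those of the largest rises that held the AP-1 motif TGANTCA; the capitals mark it, beginning 46 bases before the start of Mmp3 and 73 before that of Sele.
Mmp3: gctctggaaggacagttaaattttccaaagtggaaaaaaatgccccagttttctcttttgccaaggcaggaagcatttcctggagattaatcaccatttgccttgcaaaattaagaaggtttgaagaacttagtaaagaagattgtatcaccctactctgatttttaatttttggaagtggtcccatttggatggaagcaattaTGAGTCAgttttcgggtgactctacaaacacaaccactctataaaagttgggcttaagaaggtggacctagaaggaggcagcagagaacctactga
Sele: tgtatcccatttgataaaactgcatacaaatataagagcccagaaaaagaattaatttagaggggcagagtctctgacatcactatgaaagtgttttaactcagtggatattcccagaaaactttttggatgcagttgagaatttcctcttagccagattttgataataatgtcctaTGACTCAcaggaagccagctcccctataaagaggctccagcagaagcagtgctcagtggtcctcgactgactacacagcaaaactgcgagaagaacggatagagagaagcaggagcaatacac
The motif was in 7.81% of all 32851 windows, in 6.99% of the windows of genes higher at 24 h and in 4.84% of those of genes lower at 24 h. Here too, all windows include those of genes that were not tested. Of the 12 largest rises, 9 genes had a window.

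The other large rises were genes of low level. Nlrx1, a mitochondrial member of the NOD-like receptor family, had 3.67, 3.08, 1.84 and 3.69 CPM at 24 h, against 0.448, 0.355, 0 and 1.17 CPM at 30 min (2.85 ± 0.42, edgeR adjusted p = 0.000288; 3.39 ± 0.42 and 9.02e-06 without culture 4). Galr1, a receptor of the neuropeptide galanin, had 8.69, 7.41, 4.94 and 8.28 CPM at 24 h, against 1.62, 0.964, 0.412 and 4.2 CPM at 30 min. The groups did not overlap in either gene (for Galr1 2.22 ± 0.45, adjusted p = 0.00335; 2.82 ± 0.35 and 9.33e-06 without culture 4). Atp6v0d2, a subunit of the vacuolar proton pump, Hmga2, an architectural chromatin protein, H60b, a ligand of an activating immune receptor, Gpr4, a proton-sensing receptor, Chil3, a chitinase-like protein, Tecta, a protein of the tectorial membrane, and the ephrin receptor gene Epha2 were higher by 2.20 to 2.69 (adjusted p = 0.00787 to 0.042). These 7 genes had at most 3.97 CPM in any library at either time. All of them missed the threshold in the 12 KO libraries alone, at adjusted p = 0.0662 to 0.165. Of the 7, Gpr4, Tecta and Epha2 did not overlap between the times, and the others overlapped through the 30 min library of culture 4. Over all genes tested, 6.82% did not overlap, and these 7 were chosen for their rise.

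Among genes that act back on growth factor signalling, rises outnumbered falls. Of 30 MAP kinase feedback genes 10 were higher (33.3%) and 2 lower (6.67%), against 5.41% and 6.16% of all genes, with a median log2 fold change of 0.20. Without culture 4, 12 were higher (40%) and 4 lower (13.3%), against 9.95% and 10.8%. In the 12 KO libraries alone 3 were higher and 0 lower. Lrig1, a membrane protein that promotes the degradation of receptor kinases, had 49.6, 54.1, 47.7 and 34.5 CPM at 24 h, against 14.3, 12, 11.9 and 31.2 CPM at 30 min. The groups did not overlap, and culture 4 differed little between the times (1.46 ± 0.27, edgeR adjusted p = 0.00166; 1.98 ± 0.16 and 8.32e-08 without culture 4). Etv4, an ETS factor downstream of MAP kinase, rose by 1.02 ± 0.29 (adjusted p = 0.0276; 0.14 in the 12 KO libraries alone). Socs2, an inhibitor of cytokine receptor signalling, had 7.35, 9.02, 10.2 and 18.7 CPM at 24 h, against 16.6, 19.6, 22.7 and 13.8 CPM at 30 min, lower in cultures 1 to 3 and higher in culture 4 (-0.77 ± 0.18, adjusted p = 0.0107; -1.14 ± 0.11 and 3.07e-07 without culture 4; 0.0849 in the 12 KO libraries alone).

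Bdnf had 227, 203, 249 and 169 CPM at 24 h, against 252, 210, 248 and 312 CPM at 30 min. The times were close in cultures 1 to 3 and apart in culture 4, and the change did not pass the threshold (-0.27 ± 0.16, edgeR adjusted p = 0.297; -0.05 ± 0.15 and 0.844 without culture 4). Ntrk2 had 521, 569, 512 and 419 CPM at 24 h, against 642, 712, 644 and 452 CPM at 30 min, lower at 24 h within each of the 4 cultures although the groups overlapped (-0.27 ± 0.07, adjusted p = 0.0124; -0.31 ± 0.06 and 0.000942 without culture 4; 0.0644 in the 12 KO libraries alone). Of 41 measured genes of BDNF, TrkB and its signal transducers, 3 were higher (7.32%) and 4 lower (9.76%) with all cultures, against 5.41% and 6.16% of all genes. Without culture 4, 6 were higher (14.6%) and 9 lower (22%), against 9.95% and 10.8%. The 12 KO libraries alone gave 1 higher and 0 lower. Of the RSK and MSK kinases, which act below MAP kinase, Rps6ka2 and Rps6ka3 rose by 0.41 ± 0.08 and 0.52 ± 0.12 (adjusted p = 0.00343 and 0.0112) and Rps6ka5, which encodes the histone H3 kinase MSK1, fell by 0.73 ± 0.16 (0.00637). All 3 missed the threshold in the 12 KO libraries alone (0.0527 to 0.0923).

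Among ion channel genes, falls outnumbered rises. Of 73 voltage-gated channel genes 17 were lower (23.3%) and 7 higher (9.59%), against 6.16% and 5.41% of all genes, with a median log2 fold change of -0.02. Without culture 4, 21 were lower (28.8%) and 12 higher (16.4%), against 10.8% and 9.95%. In the 12 KO libraries alone 9 were lower and 3 higher. The closely related Kv channel interacting proteins moved in opposite directions. Kcnip4 (ENSMUSG00000029088.14, chr5:48389502-49524907) had 7.14, 7.77, 6.5 and 10.3 CPM at 24 h, against 15.5, 19.2, 15.3 and 15.9 CPM at 30 min. Kcnip3, also known as DREAM, a calcium-dependent transcriptional repressor (ENSMUSG00000079056.10, chr2:127456498-127522094), had 46.5, 32.2, 40.5 and 70.3 CPM at 24 h, against 23.2, 13.3, 16.4 and 35.4 CPM at 30 min. Kcnip4 fell without overlap (-1.07 ± 0.12, edgeR adjusted p = 3.41e-05; -1.21 ± 0.12 and 5.14e-07 without culture 4), and Kcnip3 rose in each culture although the groups overlapped through culture 4 (1.13 ± 0.15, adjusted p = 9.19e-05; 1.19 ± 0.13 and 2.8e-06 without culture 4). Kcnh5, a channel of the ether-à-go-go family, fell by 1.15 ± 0.27 (adjusted p = 0.0087; 0.0981 in the 12 KO libraries alone).

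At GABA synapses 7 of 25 measured genes were lower (28%) and 0 were higher, against 6.16% and 5.41% of all genes, with a median log2 fold change of -0.16. Without culture 4 the direction was mixed, with 10 lower (40%), 6 higher (24%) and a median of -0.07, against 10.8% and 9.95% of all genes. In the 12 KO libraries alone 4 were lower and 0 higher. Slc6a11, encoding the GABA transporter GAT-3, had 21, 19.4, 18.5 and 21.5 CPM at 24 h, against 37.1, 31.2, 31.9 and 22.2 CPM at 30 min, with no overlap (-0.59 ± 0.12, edgeR adjusted p = 0.00255; -0.76 ± 0.10 and 2.9e-05 without culture 4). Gabrd, the δ subunit of extrasynaptic GABA receptors, averaged 13.7 ± 2.38 CPM at 24 h and 21.3 ± 2.58 CPM at 30 min (SD, n = 4 each). The groups did not overlap and the gene fell in all 4 cultures (-0.65 ± 0.14, adjusted p = 0.00451). Summed over 14 interneuron markers, the level was 3940, 4680, 4500 and 2320 CPM at 24 h and 3970, 4560, 4920 and 3360 CPM at 30 min; 0 rose and 2 fell, Lhx6 and Reln, named after their values were seen, and without culture 4 3 rose and 2 fell. Their part in the change of the GABA genes was not tested.

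Glutamate receptor and postsynaptic genes changed in both directions, 6 of 54 higher (11.1%) and 8 lower (14.8%), against 5.41% and 6.16% of all genes. Without culture 4, 9 were higher and 12 lower (16.7% and 22.2%, against 9.95% and 10.8%), and in the 12 KO libraries alone 3 were higher and 5 lower. Besides Grm2, the kainate receptor subunit gene Grik4 had 14.6, 10.7, 10.4 and 8.66 CPM at 24 h, against 6.36, 5.53, 5.15 and 8.67 CPM at 30 min, equal in culture 4 and higher in the other cultures (0.80 ± 0.16, edgeR adjusted p = 0.00306). Homer3, a postsynaptic scaffold, was higher by 0.77 ± 0.18 (adjusted p = 0.00815). Of 51 presynaptic genes 9 were lower (17.6%) and 4 higher (7.84%), and without culture 4 18 were lower (35.3%) and 7 higher (13.7%); in the 12 KO libraries alone 3 were lower and 0 higher. Slc17a6, the vesicular glutamate transporter VGLUT2, had 95.3, 92.4, 67.1 and 122 CPM at 24 h, against 38.2, 31.9, 28.2 and 116 CPM at 30 min. Culture 4 was high at both times and the other cultures rose (0.99 ± 0.20, adjusted p = 0.00371; 1.38 ± 0.09 and 4.47e-09 without culture 4; 0.0639 in the 12 KO libraries alone). Of the synaptotagmins, membrane proteins of vesicle release, Syt12 rose by 0.75 ± 0.20 (adjusted p = 0.0175; 0.104 in the 12 KO libraries alone) and Syt17 fell by 0.63 ± 0.14 (adjusted p = 0.00746).

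**Figure D4:**
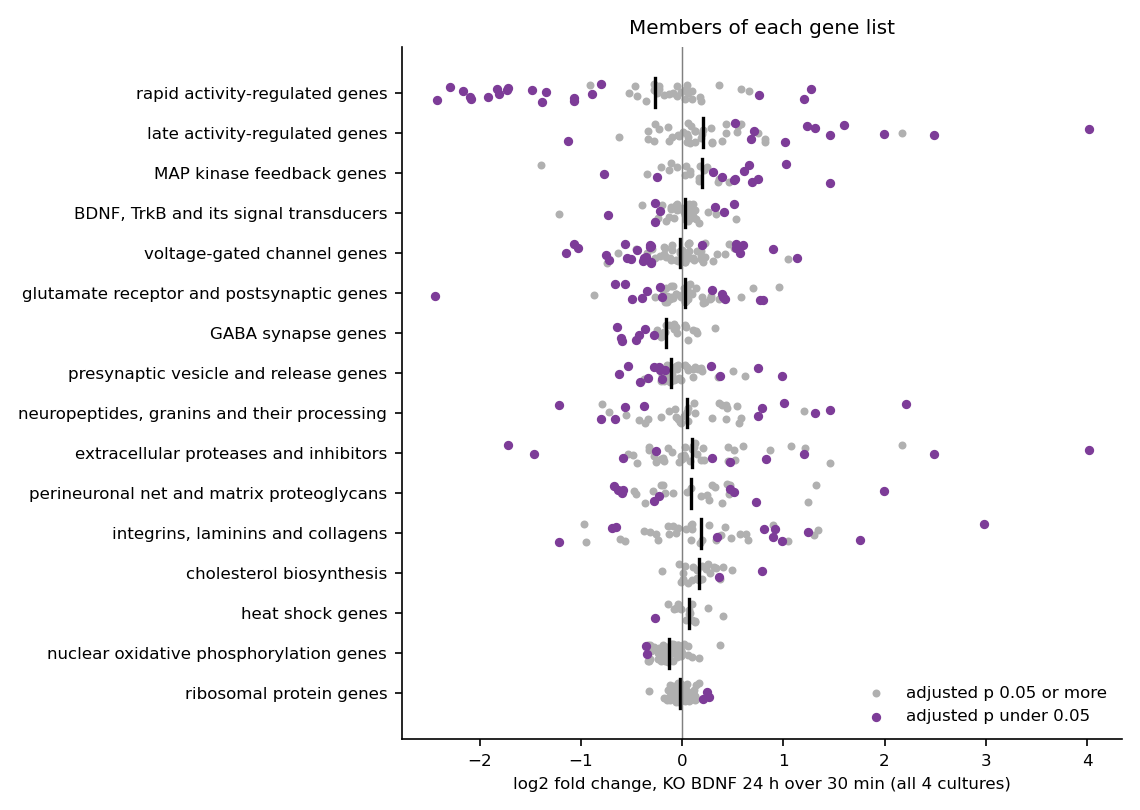
Log2 fold change of KO 24 h over 30 min with all 4 cultures (x axis) for the measured members of 16 gene lists (y axis); purple points passed an adjusted p of 0.05, grey points did not, and black bars are medians. The rapid list has 17 of 48 members lower and the late list has 11 of 49 higher. The medians of the nuclear oxidative phosphorylation and ribosomal protein lists are -0.13 and -0.02.

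In the secreted and extracellular lists some genes rose strongly. Of 41 neuropeptide, granin and processing genes, 6 were higher (14.6%) and 5 lower (12.2%), against 5.41% and 6.16% of all genes. Without culture 4 14 were higher (34.1%) and 5 lower (12.2%), against 9.95% and 10.8%. With the 12 KO libraries fitted alone, falls outnumbered rises in this list, with 2 of 40 higher and 4 lower. Grp, gastrin-releasing peptide, rose by 1.46 ± 0.46 (edgeR adjusted p = 0.045; 0.202 in the 12 KO libraries alone). Of 47 extracellular proteases and inhibitors, 6 were higher (12.8%) and 4 lower (8.51%) with all cultures, and 13 were higher (27.7%) and 5 lower (10.6%) without culture 4. The 12 KO libraries alone gave 3 higher and 2 lower. Mme, neprilysin, a membrane peptidase that degrades neuropeptides, had 1.76, 1.65, 3.62 and 2.33 CPM at 24 h, against 10.4, 8.43, 7.42 and 4.25 CPM at 30 min, lower in all 4 cultures with no overlap (-1.72 ± 0.32, adjusted p = 0.00182; -1.93 ± 0.32 and 0.000228 without culture 4). Of 31 measured genes of perineuronal nets and matrix proteoglycans, 4 were higher (12.9%) and 6 lower (19.4%) with all cultures, whereas 8 were higher (25.8%) and 6 lower (19.4%) without culture 4. For this list the 12 KO libraries alone gave 1 of 30 higher and 2 lower. Chst15, a sulfotransferase of chondroitin sulfate, had 40.3, 40.4, 36.8 and 44.4 CPM at 24 h, against 74.1, 72.9, 75.4 and 43.3 CPM at 30 min, lower in cultures 1 to 3 and about equal in culture 4 (-0.67 ± 0.14, adjusted p = 0.00351; -0.91 ± 0.10 and 2.92e-06 without culture 4). Gpc5, a glypican, rose by 0.73 ± 0.23 (adjusted p = 0.0432; 0.195 in the 12 KO libraries alone).

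In the metabolic and housekeeping lists the shares of genes past the threshold in the main fit lay near or below those over all genes with all cultures (5.41% higher and 6.16% lower). Without culture 4, 9.95% of all genes were higher and 10.8% lower. Of 25 cholesterol synthesis genes, 2 were higher (8%) and 0 lower, and without culture 4 3 were higher and 1 lower; the median log2 fold change was 0.17 with all cultures and -0.02 without culture 4. With no filter on low counts 11 of the 25 were higher and 0 lower, where 1263 of all 29388 genes were higher and 1069 lower. Among the cholesterol genes, Sc5d, a sterol desaturase, rose by 0.36 ± 0.11 (edgeR adjusted p = 0.0331) and missed the threshold in the 12 KO libraries alone (0.195). Of 17 measured heat shock genes 0 were higher and 1 was lower (5.88%), and without culture 4 3 were higher and 1 lower. The gene that fell was the HSP40 cochaperone gene Dnajb1, at 75.2, 83.3, 65.5 and 70.7 CPM at 24 h and 97.8, 103, 85.9 and 70.2 CPM at 30 min (-0.27 ± 0.08, adjusted p = 0.0299; 0.121 in the 12 KO libraries alone). Of 62 nuclear oxidative phosphorylation genes 0 were higher and 2 lower (3.23%) with all cultures, 0 were lower with another scaling of the libraries, and 3 were higher and 0 lower without culture 4. The fit with no filter on low counts gave 1 higher and 13 lower. Of 54 ribosomal protein genes 3 were higher (5.56%) and 0 lower, and without culture 4 6 were higher (11.1%). When the 30 min library of culture 3, the one with the lowest total, was left out together with culture 4, 40 of the 54 ribosomal protein genes and 6 of the oxidative phosphorylation genes were higher and 0 lower. Over all genes in that fit, 1706 of 17393 were higher and 1721 lower. Of 12 mitochondrially encoded genes 0 passed in either direction with or without culture 4, but 7 were lower without culture 3 and 7 with no filter on low counts. Of 5 measured H2B genes 0 passed with all cultures and 1, Hist3h2ba, without culture 4, where it was lower. The test of DESeq2 called 3 of the 5 lower, the fit with no filter 2, and the fit without the 30 min library of culture 3 or of culture 4 1 each.

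The same comparison in WT neurons shares no library with the KO comparison. In WT, 4846 of 16777 genes passed (28.9%), 2385 higher (14.2%) and 2461 lower (14.7%). Of the 1940 genes called in KO, 1527 were called in the same direction in WT, which is 78.7% of the KO genes and 31.5% of the WT genes. The median absolute log2 fold change of the KO genes was 0.448 in KO and 0.496 in WT. Over all 16777 genes the log2 fold changes of the genotypes correlated at r = 0.482, a description across genes that are not independent. Tested as a difference of the changes, 400 genes (2.38%) passed, 200 with a more positive change in KO (1.19%) and 200 with a more negative one (1.19%), and without culture 4 743 of 16915 (4.39%). Of the 200 with a more positive change, 186 fell in WT, 56 fell and 19 rose in KO, and 192 also passed without culture 4. Of the 200 with a more negative change, 189 rose in WT, 59 rose and 16 fell in KO, and 186 also passed without culture 4. With 1 WT culture left out in turn, an alternative added after the data were seen, 101 to 243 genes passed.

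Of the 48 rapid genes, 18 had a more positive change in KO and 1 a more negative one, against 1.19% of all genes each way, and without culture 4 the numbers were 19 and 1, against 1.97% and 2.42%. Fosb fell less in KO, at 44.1 ± 6.3 CPM at 24 h and 114 ± 34.8 CPM at 30 min in KO, and 11.7 ± 7.1 CPM and 239 ± 33.9 CPM in WT (SD, n = 4 each). KO levels were thus higher than WT at 24 h and lower at 30 min, and the changes differed by 3.16 ± 0.28 (edgeR adjusted p = 1.48e-05; 2.96 ± 0.27 and 5.59e-06 without culture 4). Nr4a1 was at 67.3 ± 11.8 and 199.6 ± 76.9 CPM in KO, and at 36.5 ± 11.5 and 500.3 ± 116 CPM in WT, at 24 h and 30 min in turn (difference 2.33 ± 0.30, adjusted p = 0.000435; 1.97 ± 0.22 and 7.38e-05 without culture 4). Fos differed by 1.93 ± 0.27 (adjusted p = 0.000755), and Egr3 and Egr4 by 2.16 ± 0.38 and 2.39 ± 0.42 (0.00467 and 0.00463). Untreated libraries averaged 19.1 CPM of Fosb in KO and 3.89 CPM in WT. They averaged 61.4 and 34 CPM of Nr4a1, and 115.5 and 49.1 CPM of Fos, in KO and WT in turn. Egr4 was also higher in untreated KO libraries (3.15 against 1.76 CPM) and Egr3 was lower (2.46 against 4.73 CPM). The part of the untreated levels in these differences was not tested. Egr1 and Arc did not differ past the threshold: their differences were 0.47 ± 0.47 and 0.62 ± 0.46 (adjusted p = 0.691 and 0.559), and -0.24 ± 0.22 and -0.05 ± 0.24 without culture 4.

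**Figure D5:**
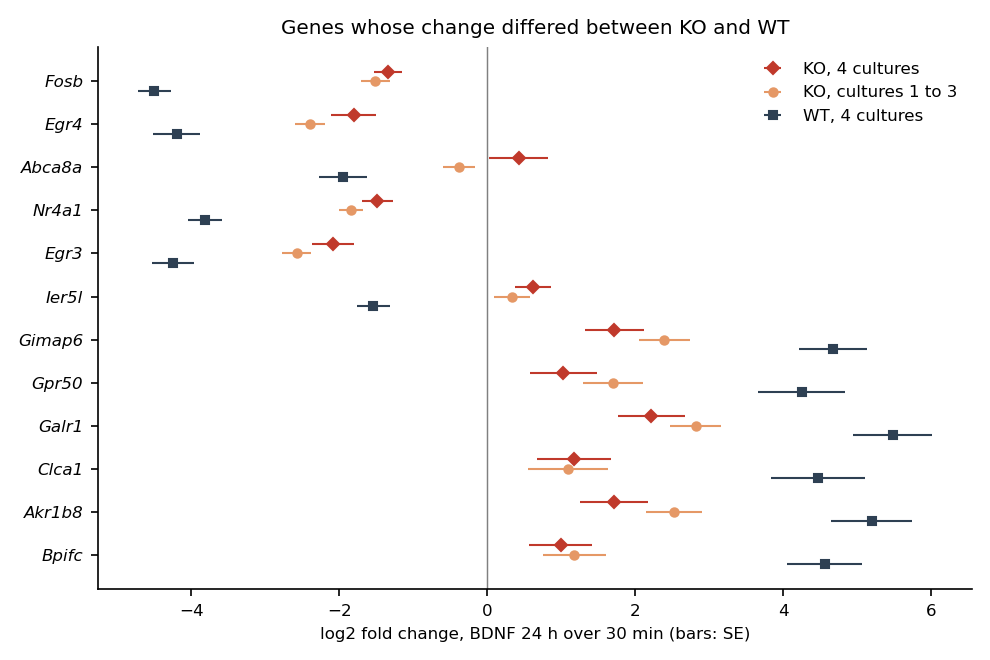
Log2 fold change of BDNF 24 h over 30 min (x axis, bars are SE) in KO with 4 cultures, in KO with cultures 1 to 3 and in WT, for the 12 genes named for a difference between the genotypes (y axis). The WT points lie further from 0 than the KO points for all 12 genes, on the same side except for Abca8a with 4 cultures and Ier5l.

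Genes that rose less in KO included Galr1, at 7.33 ± 1.68 CPM and 1.80 ± 1.68 CPM in KO, and 10.8 ± 2.43 and 0.242 ± 0.074 CPM in WT, at 24 h and 30 min in turn (difference -3.26 ± 0.69, edgeR adjusted p = 0.014; -2.66 ± 0.50 and 0.00347 without culture 4). Untreated libraries averaged 1.07 CPM of Galr1 in KO and 0.292 CPM in WT, and the part of these levels in the difference was not tested. Akr1b8, an aldo-keto reductase, had 12.3, 12, 10.1 and 7.01 CPM at 24 h and 1.94, 1.08, 3.91 and 8.49 CPM at 30 min in KO, against 9.69 to 11.1 and 0.148 to 0.462 CPM in WT. All 4 KO libraries at 30 min were above all WT libraries at 30 min, and the difference was -3.49 ± 0.71 (adjusted p = 0.0113; -2.67 ± 0.54 and 0.00638 without culture 4). The rise of Akr1b8 in KO missed the threshold in the 12 KO libraries alone (0.121). Gimap6, a small GTPase of the immune-associated family, showed the same order, with 0.846 to 12.3 CPM at 30 min in KO and 0.283 to 0.588 CPM in WT (difference -2.96 ± 0.60, adjusted p = 0.0108), and its rise in KO missed the threshold in the 12 KO libraries alone (0.0724). Bpifc, a lipid-binding protein of the BPI family, Clca1, a secreted metalloprotease-like protein, and Gpr50, a melatonin-related receptor, were among the 6 with the most negative differences at -3.57, -3.30 and -3.22 (adjusted p = 0.00624, 0.036 and 0.0257); none of them passed the threshold in KO itself with all cultures (0.144 to 0.16).

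Ier5l, a relative of the immediate-early gene Ier5, and Abca8a, a lipid transporter, fell in WT but did not pass the threshold in KO. Ier5l had 1.68, 1.85, 1.84 and 2.33 CPM at 24 h and 1.49, 1.73, 1.03 and 0.723 CPM at 30 min in KO, against 2.72 ± 0.88 and 8.11 ± 3.85 CPM in WT (SD, n = 4 each). The difference was 2.16 ± 0.33 (edgeR adjusted p = 0.00181; 1.87 ± 0.30 and 0.00113 without culture 4). Abca8a had 1.07, 0.845, 1.32 and 3.46 CPM at 24 h and 1.49, 1.02, 1.75 and 0.271 CPM at 30 min in KO, against 4.85 ± 1.16 and 18.9 ± 4.04 CPM in WT. Its change in KO was 0.42 ± 0.39 with all cultures and -0.38 ± 0.21 without culture 4, and the difference from WT was 2.37 ± 0.50 and 1.57 ± 0.25 (adjusted p = 0.0141 and 0.00113). Dnajb1 fell more in WT, to 60.04 ± 2.74 CPM at 24 h against 158 ± 6.48 CPM at 30 min, and the changes differed by 1.12 ± 0.11 (adjusted p = 3.42e-05). The TrkB gene Ntrk2 fell less in KO than in WT by 0.45 ± 0.09 (adjusted p = 0.0114; 0.40 ± 0.08 and 0.00498 without culture 4).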

How the data were processed

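RNA-seq counts of 24 libraries were used, of which 8 form the comparison described here, and the other 16 entered the fit to share its estimate of the spread and to give the untreated and WT values. The authors deposited one table of whole-number read counts for 45792 genes. Per the labels' protocols, polyadenylated RNA was made into libraries with a stranded kit. Reads were aligned to mm10 with STAR 2.7.9a, per the submitters' processing notes; no source used here names the counting program, its strand setting or the annotation version, so reads of overlapping and antisense genes cannot be told apart. Symbols came from a gene table of the same build and named 45229 genes (98.77%); the 563 unnamed genes held 0.0662% of the counts.

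Counts were normalised by TMM (factors 0.824 to 1.07) and genes were kept by edgeR's filterByExpr (count minimum 10, total minimum 15). The main test was edgeR 4.0.16's quasi-likelihood test in R 4.3.3, with 8 cultures as blocks and treatment within genotype (12 residual degrees of freedom, 10 without KO culture 4), Benjamini-Hochberg adjustment over all genes and a threshold of 0.05. SE is the absolute log2 fold change over the square root of F. The common biological coefficient of variation was 14%. The labels call the replicates biological. The pairing comes from the culture code in the labels: deviations from group means correlated over 0.1 in 22 of 24 within-culture pairs (0.0464 to 0.462), and for the KO 24 h and 30 min libraries at 0.0751 to 0.215 within a culture and -0.141 to 0.0429 across cultures. No 2 libraries held identical counts. Intervals cover counting error only. The procedure was tested on simulated counts. These gave all libraries the same spread for a gene. They therefore do not test the wider spread of the KO libraries, nor a culture that changes unlike the others.

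Named genes were the 12 largest rises and 12 largest falls among genes past the threshold with a mean of at least 1 CPM and the same direction in all 4 cultures, predicted gene models passed over; up to 3 of each of the lists with the largest change among those past the threshold; the 6 largest differences between genotypes of each sign; and Hist2h2be, Bdnf, Ntrk2, Egr1, Fos, Arc and Npas4. Of the genes this rule names, 2 are not reported here. The comparison, its members and the lists were chosen with earlier results of these data known. Alternatives were the fit with no replicate block, DESeq2 1.42.0 and its size factors, no filter, mitochondrially encoded genes left out, KO libraries alone, and replicates left out in turn.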

Additional observations from a re-analysis of the deposited data

Results flagged for a closer look

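In 22 of 138 groups of 4 libraries, 1 library lay far from the other 3 by Dixon's criterion at the 95% level, on the gap to the nearest library over the range, where chance gives about 1 in 20. Of these, 10 were the library labelled KO 24 h replicate 4 and 9 were KO 30 min replicate 4. KO 24 h replicate 4 was the highest of its group for Npas4 at 110 CPM, Btg2 at 42.6, Ccn1 at 82.6, Junb at 25.5, Egr1 at 187, Arc at 61.5, Itga6 at 82.5, Grm2 at 16.9, Gpr4 at 3.97 and Hmga2 at 2.31 CPM. KO 30 min replicate 4 was the highest of its group for Mmp3 at 2.35 CPM, Lrig1 at 31.2, Slc17a6 at 116, Chil3 at 1.54, Atp6v0d2 at 1.81, Serpinb2 at 7.59 and Hmga2 at 1.81 CPM, and for the mitochondrial share at 21.7%, and it was the lowest for Chst15 at 43.3 CPM. KO 30 min replicate 2 was the highest for Kcnip4 at 19.2 CPM and Hist2h2be at 63.1 CPM, and KO 30 min replicate 3 the lowest for Rps6ka3 at 66.4 CPM. The library labelled KO 24 h replicate 4 also differed from its culture partners in Xist, Ddx3y and Hist2h2be; whether it holds RNA of another culture was not tested.

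The change between 30 min and 24 h differed between KO and WT for 20 named genes by the test of the difference itself (KO minus WT, log2, edgeR adjusted p under 0.05). Positive differences were 3.16 for Fosb, 2.39 for Egr4, 2.37 for Abca8a, 2.33 for Nr4a1, 2.16 for Egr3 and for Ier5l, 2.01 for Npas4, 1.93 for Fos, 1.84 for Junb, 1.82 for Btg2, 1.79 for Ccn1, 1.12 for Dnajb1, 0.68 for Slc6a11 and 0.45 for Ntrk2. Negative differences were -3.57 for Bpifc, -3.49 for Akr1b8, -3.3 for Clca1, -3.26 for Galr1, -3.22 for Gpr50 and -2.96 for Gimap6.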

How the results depend on the processing

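The count of 1940 genes changed in KO was 1954 with DESeq2's size factors, 2332 with no filter, 2746 with DESeq2's test and 1956 with mitochondrially encoded genes left out, and 1898, 1607, 1927 and 1856 of the same genes were among them. It was 438 with no replicate block, 138 with the libraries that carry the second name in the descriptions (KO cultures 2 to 4, WT cultures 3 and 4), 572 with the 12 KO libraries alone, 41 with the 8 KO BDNF libraries alone, 1288 with the 6 of cultures 1 to 3 alone and 3427 without culture 4 and KO 30 min replicate 3. With replicates left out in turn it ran from 796 without KO culture 2 to 3505 without KO culture 4; without KO culture 1 it was 936, and without single libraries it was 1240 (30 min replicate 1), 1102 (24 h replicate 2), 1140 (30 min replicate 2) and 1255 (24 h replicate 3). The count of 3505 without culture 4 was 1510 with no replicate block, 3517 with size factors and 4137 with DESeq2's test, and 2221 to 3325 with another culture left out, lowest without culture 2. The 400 genes that differed between the genotypes were 35 with no replicate block, 1046 with no filter, 816 with DESeq2's test, 401 with size factors, 5 with the second name only and 884 without culture 4 and KO 30 min replicate 3; they ran from 101 to 743 with replicates left out, 262 without KO 24 h replicate 3, 743 without KO culture 4, and 107, 101, 243 and 240 without WT culture 1, 2, 3 and 4. The cause of these shifts was not tested. Over 22 settings, the 67 named genes gave 1474 fold changes, of which 1139 kept direction and side of the threshold, 317 kept direction and missed it, 13 newly passed it and 5 changed sign; of 60 called genes 4 passed in every setting and 29 passed with no replicate block. The changes of sign were all of Abca8a, uncalled in KO: 0.42 with all libraries, 0.78 without KO culture 1, and -0.28 without KO 24 h replicate 4, -0.10 without KO 30 min replicate 4, -0.38 without culture 4, -0.39 without culture 4 and KO 30 min replicate 3, and -0.37 with the 6 KO BDNF libraries alone. Of the 264 values of the 12 genes named for a difference, 222 kept their call and 42 missed the threshold. Low totals limit genes under about 1 CPM.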

Other observations

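Among the neuronal marker lists, changes went both ways. For comparison, 5.41% of all genes tested were higher and 6.16% lower with all cultures, and 9.95% and 10.8% without culture 4. Of 10 pan-neuronal markers 2 were higher (Nefl and Map2) and 2 lower (Stmn2 and Rbfox3), and without culture 4 3 were higher and 5 lower. Of 12 excitatory cortical neuron markers 2 were higher (Slc17a6 and Rorb) and 3 lower (Cux2 and Neurod6 among them), and without culture 4 1 was higher and 6 lower. The 3 genes given in full here were chosen after their values were seen. Cux2, a factor of upper-layer neurons, had 27.7, 28.8, 29.6 and 22.6 CPM at 24 h, against 54.8, 66.4, 51.4 and 36.7 CPM at 30 min, lower in every culture (log2 fold change -0.94 ± 0.17, edgeR adjusted p = 0.00134). Neurod6, a factor of excitatory neurons, had 49.5, 49.1, 55.7 and 137 CPM at 24 h, against 92.6, 102, 113 and 130 CPM at 30 min, lower in cultures 1 to 3 only (-0.73 ± 0.13, edgeR adjusted p = 0.0014). Nefl, the light neurofilament chain, had 442, 427, 433 and 583 CPM at 24 h, against 247, 241, 267 and 526 CPM at 30 min, higher in every culture (0.61 ± 0.12, edgeR adjusted p = 0.00278). Of 8 measured oligodendrocyte lineage markers 2 were higher and 0 lower, the myelin genes Mbp and Mog, with a summed level of 46.2 to 68.7 CPM at 24 h and 33.7 to 42.9 CPM at 30 min. Of 13 measured cycling cell genes 1 was higher and 0 lower, Mcm2, a subunit of the replicative helicase.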
